A study of Mus musculus with 12 samples.

Results

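Heat shock proteins, DnaJ cochaperones and chaperonins were picked by name, as all genes whose symbol places them in the HSP70, HSP110, HSP90, small HSP, mitochondrial chaperonin, CCT chaperonin, DnaJ A, B and C, BAG or HSF families, together with Serpinh1, the collagen chaperone HSP47. This gave 94 of the 25239 genes listed and 11 of the 2643 m6A peaks. A few bear a family name without being chaperones, such as Hsf2bp and Hspb11.

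Molecular chaperones are the proteins that fold other proteins, hold damaged ones in solution and pass those beyond repair to degradation. HSP70 proteins bind unfolded stretches in a cycle driven by ATP. DnaJ proteins (also called HSP40) bring them their clients and switch the cycle on, while BAG and HSP110 proteins release the nucleotide and reset it. HSP90 finishes the folding of kinases and receptors, the chaperonins enclose a protein in a barrel, and small HSPs keep aggregates from growing. When unfolded protein builds up in the cytosol, the transcription factor HSF1 switches on the inducible members of these families, and separate programs serve the endoplasmic reticulum (ER) and the mitochondrion. Neurons live long and do not dilute damaged protein by division, and so they rely on this network.

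The study treated HT22 cells, a wild-type line of mouse hippocampal neurons and the only cell model sequenced, with mesaconitine (MA), a toxic diester-diterpenoid alkaloid of Aconitum. The groups were 800 μM MA and 0 μM (Control), both for 72 h, with MA dissolved in DMSO. The dose lowered viability in the study but left most cells alive. Each group gave 3 input libraries of fragmented poly(A) RNA and 3 libraries of fragments pulled down with an antibody against N6-methyladenosine (m6A), 12 in all. Nothing in the labels says whether the 3 libraries of a group came from separate cultures. The expression p-values therefore measure the spread between these libraries, which may be technical. The peak p-values come from a Poisson model, as the study states, and need not measure that spread.

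Only the comparison tables were used here, which hold no value for a single library. The level of a gene is therefore given as its base mean, the mean normalized read count over the compared libraries, and its error as the standard error (SE) of the log2 fold change, with 95% Wald intervals. The depth of each library is not known from these tables, and the base mean behind each gene stands in for it. Positive log2 fold changes mean higher after MA. The deposited sign was reversed to read this way, since the study's supplementary gene list carries the opposite sign for the same genes and p-values. That list also sits on a slightly lower zero point. The call counts of the members and of some groups were therefore recomputed with all changes lowered by 0.1. So were the changes of 38 single members, while intervals were not. Changes of 0.1 or less have no firm direction. A gene was called where its unadjusted p was under 0.05 and it differed by over 1.2-fold (0.26 on the log2 scale), and counts at an adjusted p under 0.05 with no fold threshold are given beside these. The neuronal label was not borne out by the markers, because 7 of 13 neuron markers (Map2, Nefl, Nefm, Snap25, Stmn2, Gap43 and Dcx) were listed at a base mean of 0 and only Tubb3 and Eno2 reached 100, at 473 and 534. By contrast 7 of 8 fibroblast markers were above 100, led by Col3a1 at 134804.

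Of the 94 genes, 84 were measured well enough for a p-value and 81 for an adjusted one. The 10 listed at a base mean of 0 were Dnajb3, Dnajb8, Dnajb13, Dnajc5b, Dnajc5g, Dnajc12, Hspb3, Hspb7, Hsf3 and Cct8l1, and Dnajb7, Dnajc6 and Hsf5 had a p-value but too few reads for an adjusted one. Base means of the tested members ran from 0.70 for Hsf5 to 192101 for Hsp90ab1, and 55 members reached 1000. Per kilobase of transcript, the constitutive HSP70 Hspa8 (76730 per kb) and Hsp90ab1 (76231 per kb) stood side by side at the top, followed by the ER HSP90 Hsp90b1 (54914 per kb), the inducible Hsp90aa1 (28925 per kb) and the ER HSP70 Hspa5 (18682 per kb). The stress-inducible pair Hspa1a and Hspa1b lay far below, at 319 and 545 per kb.

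**Figure D1:**
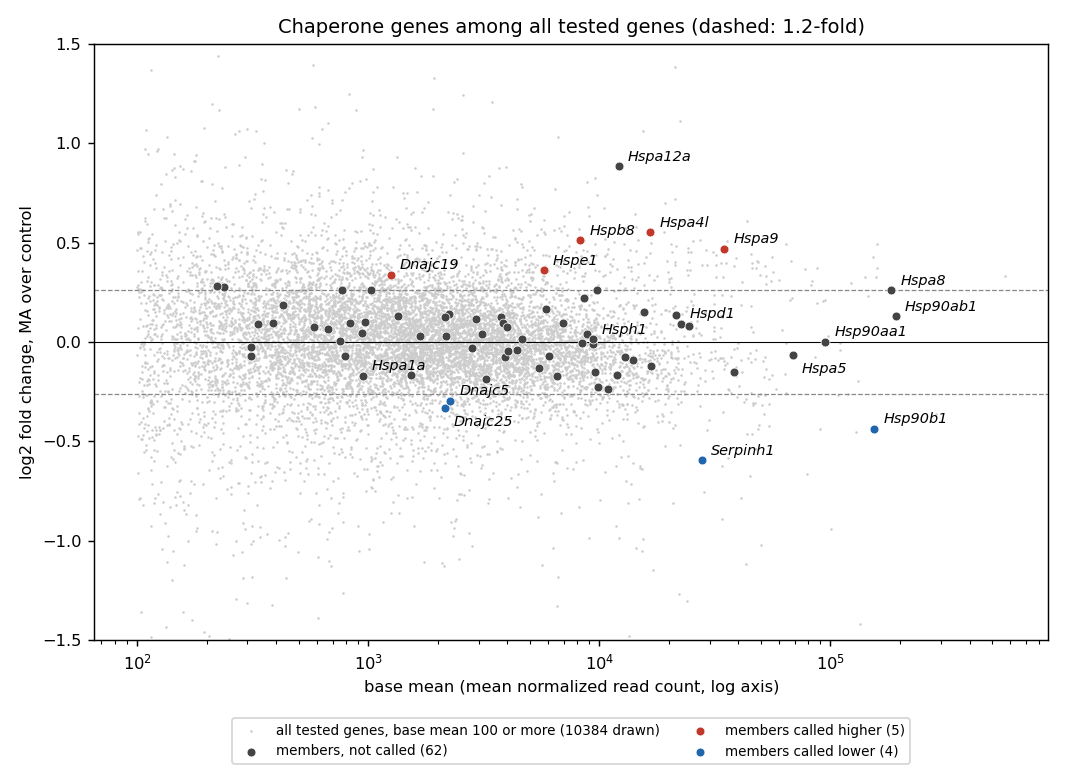
Base mean (log axis) against log2 fold change of MA over control for all tested genes with a base mean of 100 or more (grey) and the members among them (large points; red called higher, blue called lower, dark not called). Among the most abundant members, Hsp90ab1, Hspa8 and Hsp90aa1 lie between the dashed 1.2-fold lines, and Hsp90b1 lies below them at -0.44.

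After MA treatment, 6 members were called higher and 4 were called lower. Higher were Hspa9, Hspe1 and Dnajc19, which work inside the mitochondrion, the HSP110 gene Hspa4l, and the small HSPs Hspb8 and Hspb2. Lower were the ER chaperones Serpinh1 and Hsp90b1 and the DnaJ genes Dnajc25 and Dnajc5. On GRCm38, Serpinh1 lies at chr7:99345376-99353239, Hsp90b1 at chr10:86690209-86705509, Hspb8 at chr5:116408491-116422864 (all minus strand) and Hspa4l at chr3:40744495-40796103 (plus strand). The background over all 16167 tested genes was 6.8% called higher and 7.07% called lower. In either direction 10 of 84 members, or 11.9%, and 13.9% of all genes were called. At a base mean of 100 or more, 5 of 71 members were called higher and 4 lower, 12.7% in either direction. Of all 10430 genes at that level, 1002 were called higher and 935 lower, 18.6% in either direction. The other shares of all genes given here and below are over every level and include genes with few reads. At an adjusted p under 0.05 with no fold threshold, 8 members were higher and 8 lower, where the background was 5.87% and 6.87%. The changes were small, and the median of the 84 members was 0.04, beside -0.01 for all genes. For 22 members the whole 95% interval stayed within 1.2-fold in both directions at the deposited zero point. The split of 6 higher and 4 lower depends on the zero point, since it became 11 and 4 when all changes were centred on their median and 4 and 11 when they were lowered by 0.1. The share of all genes called at these shifted zero points was not worked out. The shifted counts here and below therefore have no background and show only how far the calls move.

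**Figure D2:**
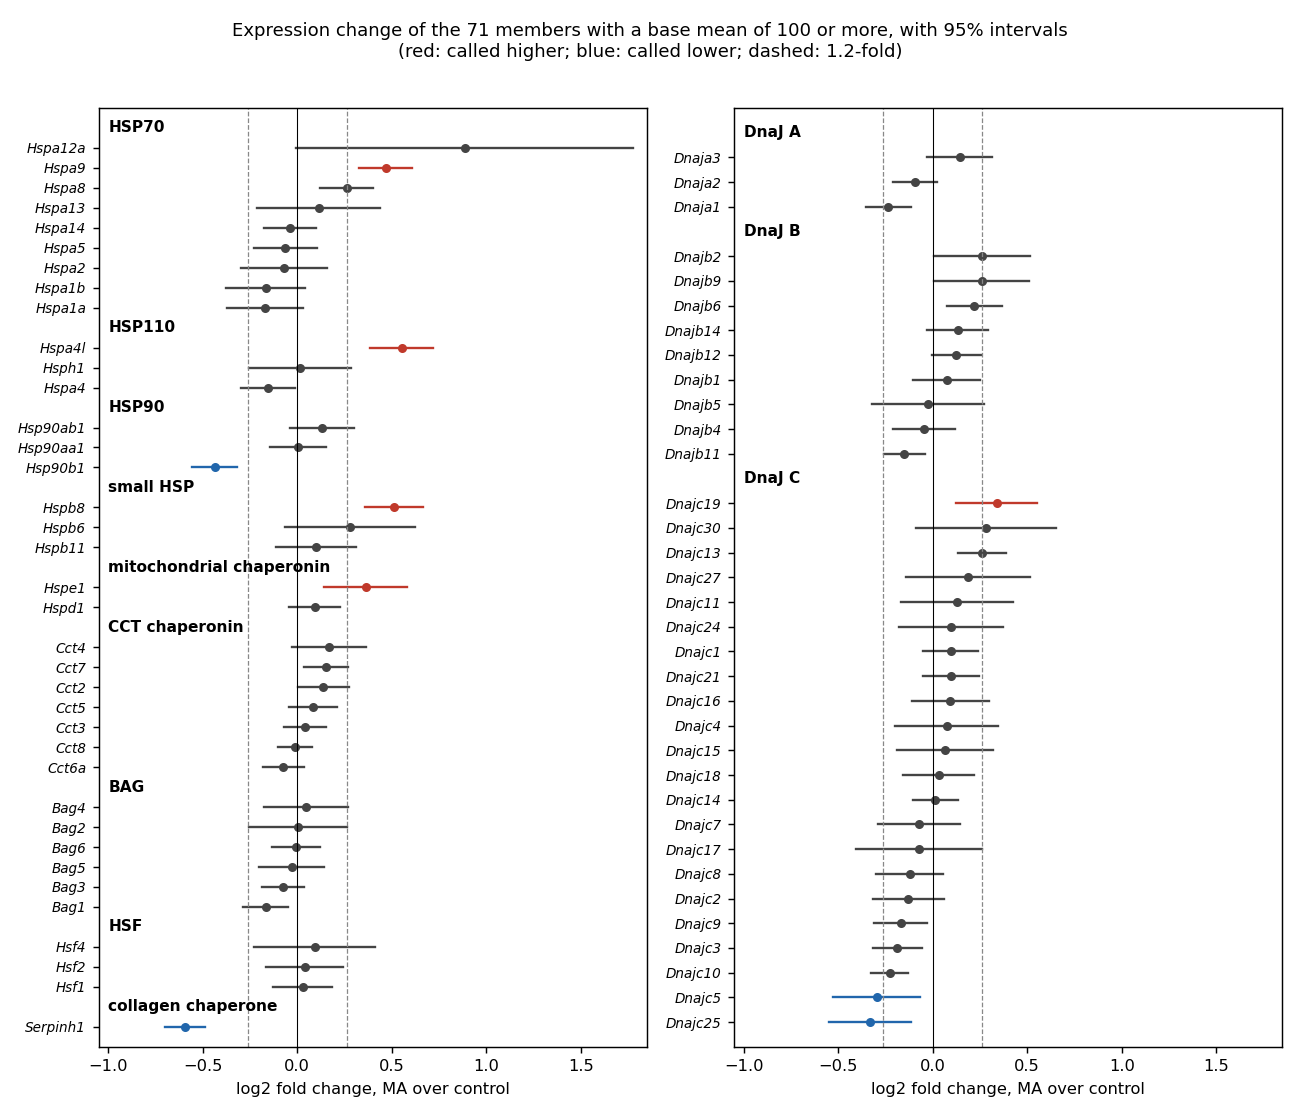
Log2 fold change of MA over control (points) with 95% intervals (bars) for the 71 members with a base mean of 100 or more, by family. Red members were called higher, blue ones lower, and most of the intervals cross 0 or lie between the dashed 1.2-fold lines.

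The lowest value of a well-measured member was that of Serpinh1, the ER chaperone that procollagen needs to form its triple helix. Serpinh1 (base mean 27707) fell to 0.662 of control, with an interval from 0.615 to 0.712, a log2 fold change of -0.60 (SE 0.05, adjusted p = 9.36e-26 by DESeq2). Its clients moved the same way, as the procollagen genes Col1a1, Col1a2 and Col3a1 had log2 fold changes of -0.94 (SE 0.04), -0.45 (SE 0.05) and -1.42 (SE 0.04). These 3 genes belong to the list of 8 fibroblast markers, of which 5 were called lower and none higher, and the part of such genes in the change of Serpinh1 was not tested. In bulk samples, fewer cells of a type and less RNA per cell cannot be told apart.

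Hsp90b1 (GRP94), the HSP90 of the ER lumen, which folds integrins and Toll-like receptors, also fell. Its base mean of 155132 makes it the third most abundant member, and it dropped to 0.739 of control (interval 0.680 to 0.802), a log2 fold change of -0.44 (SE 0.06, adjusted p = 3.69e-11 by DESeq2). When its transcript was divided into stretches of 50 bases, 3.57% of them recurred in transcripts of another gene. Its partner Hspa5 (BiP), the HSP70 of the same compartment and the textbook reporter of ER stress, had a log2 fold change of -0.06 (interval -0.23 to 0.10). At the deposited zero point a change of 1.2-fold in either direction lies outside this interval, which was not recomputed with changes lowered by 0.1.

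The compartment list used here may not hold every ER protein among the members. Across the 11 measured members that it places in the ER, 5 log2 fold changes were positive and 6 negative. Of these, 2 were called lower (7.07% of all genes) and none higher, and at an adjusted p under 0.05 without a fold threshold 5 were lower (6.87% of all genes) and none higher. With all changes lowered by 0.1, 4 were called lower, and centred on the median 1 was called higher. Besides Serpinh1 and Hsp90b1 these were 3 partners of BiP. The disulfide reductase Dnajc10 (ERdj5) had a log2 fold change of -0.23 (SE 0.05, adjusted p = 1.15e-04 by DESeq2), Dnajc3 (p58IPK) of -0.19 (SE 0.07) and Dnajb11 (ERdj3) of -0.15 (SE 0.06). The other ER members did not pass either rule. Among them Dnajb9 (ERdj4), which guides misfolded proteins to degradation, had the value 0.26 (interval 0.01 to 0.51), at the edge of the fold threshold, and it was the gene called higher by centring. The median over the ER members was -0.06, and it was -0.16 when all changes were lowered by 0.1.

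Of the 8 mitochondrial members, 3 were called higher (6.8% of all genes) and none lower (7.07% of all genes). All 8 had a positive log2 fold change, as did 48.2% of all tested genes, between 0.07 for Dnajc15 and 0.47 for Hspa9, with a median of 0.21, while 6 of 8 were positive when all changes were lowered by 0.1. The difference between the mitochondrial and ER members was not tested. Hspa9 (mortalin), the matrix HSP70 that pulls imported proteins through the inner membrane, rose to 1.38 times control (interval 1.26 to 1.53, base mean 34735, adjusted p = 3.1e-09 by DESeq2). Dnajc19 is the J protein at the import channel that stimulates this HSP70, and it rose 1.26-fold (interval 1.09 to 1.47, adjusted p = 0.0174 by DESeq2). Hspe1, the HSP10 lid of the mitochondrial chaperonin, rose 1.29-fold (interval 1.10 to 1.496, adjusted p = 0.0115 by DESeq2). Hspd1 (HSP60), which forms the barrel that HSP10 closes, did not pass the test, with a log2 fold change of 0.09 (interval -0.04 to 0.23). Both subunits have processed copies in the genome, and 46.7% of the Hspe1 stretches and 45.8% of the Hspd1 ones recur elsewhere, so their values are uncertain. The calls of Hspe1 and Dnajc19 also rest on the zero point, for with all changes lowered by 0.1 they were 0.26 and 0.24, below 1.2-fold.

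**Figure D3:**
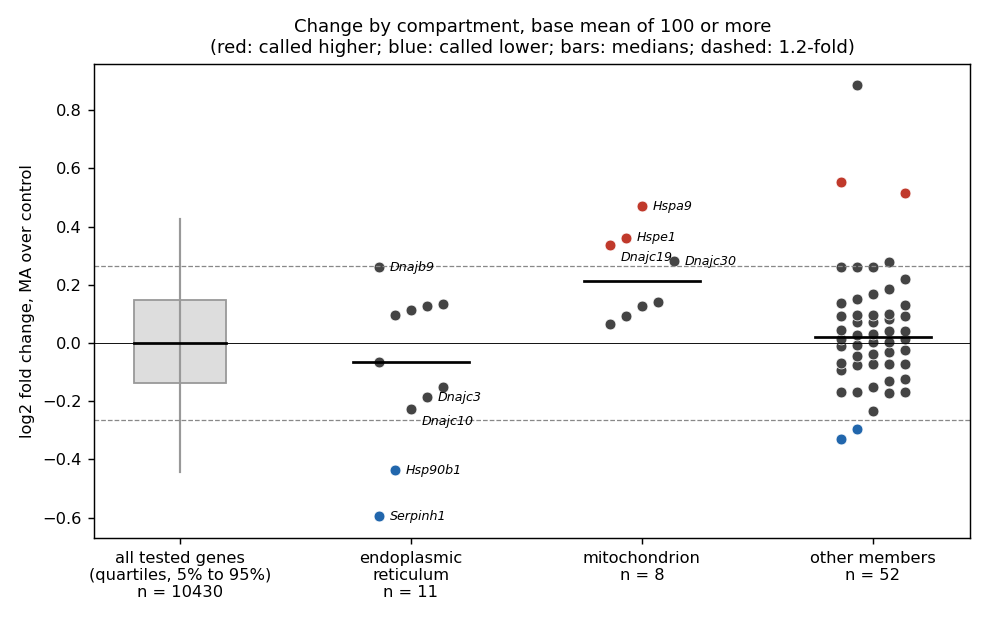
Log2 fold change of MA over control for the ER, mitochondrial and other members with a base mean of 100 or more (points; bars are medians), beside the quartiles and the 5% to 95% range of all tested genes above that level. All 8 mitochondrial members lie above 0, although 2 of them fall below it if the zero point is lowered by 0.1, and the 2 called ER members, Hsp90b1 and Serpinh1, lie at -0.44 and -0.60.

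In the cytosolic HSP70 system, the called change belonged to a nucleotide exchange factor. Hspa4l (Apg-1), an HSP110 that resets HSP70 and is itself heat-inducible in many tissues, rose to 1.47 times control (interval 1.31 to 1.65), with a log2 fold change of 0.55 (SE 0.08, adjusted p = 3.45e-09 by DESeq2). The other HSP110 genes were Hspa4, the family's most abundant member here (base mean 38240), at -0.15 (interval -0.30 to -0.01, adjusted p = 0.161 by DESeq2), and Hsph1 at 0.01 (interval -0.26 to 0.28). Neither was called, and the intervals of Hspa4l and Hspa4 did not overlap.

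Hspa8 (HSC70) is the housekeeping HSP70, which also strips clathrin from vesicles and selects clients for chaperone-mediated autophagy. Its log2 fold change was 0.26 (SE 0.07, adjusted p = 0.00317 by DESeq2), just short of the fold threshold at 1.199-fold, and it was called higher once changes were centred on the median. However, 74.5% of the stretches in its transcript recur in processed copies, so the value is uncertain. The stress-inducible Hspa1a and Hspa1b were at -0.17 (SE 0.10) and -0.17 (SE 0.11) and passed no test, but with all changes lowered by 0.1 they were -0.27 and -0.27 and both were called lower. Their coding regions of 1923 and 1926 bases differ at 37 positions counted without a gap, reads between them can be split either way, and the pair is best read as a single value. Hspa12a, a distant HSP70 relative, had the log2 fold change 0.88, but its SE of 0.45 stood far above those of the members with a higher base mean than its own (12107), which reached at most 0.09, and its interval ran from -0.0047 to 1.77.

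The HSP90 genes of the cytosol were not called. Hsp90aa1, the heat-inducible form, had a log2 fold change of 0.00 (interval -0.15 to 0.15), and the constitutive Hsp90ab1 one of 0.13 (interval -0.04 to 0.30). Hsp90aa1 shares 58.5% of its stretches with processed copies. Against these, Hsp90b1 lay apart, since its interval from -0.56 to -0.32 overlapped neither.

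Of the members with a small HSP name, 3 had a base mean above 100. Hspb8 (HSP22), which joins the cochaperone Bag3 in sending aggregated client proteins to autophagy, rose to 1.43 times control (interval 1.28 to 1.59, base mean 8261, adjusted p = 3.04e-09 by DESeq2). Its partner Bag3 was not called and had a log2 fold change of -0.07 (interval -0.18 to 0.04). Hspb6 was at 0.28 (interval -0.07 to 0.62) and Hspb11, which bears the family name only, at 0.10. Hspb2 was called higher at 3.04, but with a base mean of 8.92, an SE of 1.495 and an adjusted p of 0.177 by DESeq2 this call does not hold under the adjusted test. Hspb1 (HSP25), the best known heat-inducible small HSP, was nearly silent in these cells at a base mean of 7.54.

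The CCT ring folds actin and tubulin. None of the 8 measured genes named Cct was called, beside 13.9% of all tested genes. For so few genes, an absence of calls lies near that share. Tcp1, the ring subunit that the family name does not cover and the most abundant of them all, was not called either (base mean 31105, log2 fold change 0.01, interval -0.08 to 0.11). The smallest p was that of Cct7, with a log2 fold change of 0.15 (SE 0.06, adjusted p = 0.0702 by DESeq2). The most abundant Cct gene, Cct5, was at 0.08 (interval -0.04 to 0.21). The 7 Cct genes with a base mean above 100 lay between -0.07 for Cct6a and 0.17 for Cct4, and a change of over 1.5-fold was outside the interval of each.

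The DnaJ families hold 39 tested genes, of which 1 was called higher (Dnajc19, described with the mitochondrion) and 2 lower. In either direction 7.69% were called, beside 13.9% of all tested genes. Dnajc25, a membrane-bound J protein, fell to 0.796 of control (interval 0.685 to 0.924, adjusted p = 0.0228 by DESeq2). Dnajc5 encodes the cysteine string protein, which guards the release machinery of synaptic vesicles, and its log2 fold change was -0.30 (SE 0.12), with an adjusted p of 0.0713 by DESeq2, so it does not hold under the adjusted test. Without a fold threshold 3 DnaJ genes were higher and 5 lower at an adjusted p under 0.05, where 5.87% and 6.87% of all genes were. Higher, beside Dnajc19, were Dnajc13 (RME-8), which sorts cargo on endosomes, at 0.26 (SE 0.06, adjusted p = 7.42e-04 by DESeq2), and Dnajb6, which blocks the growth of polyglutamine aggregates, at 0.22 (SE 0.07). Lower, beside Dnajc25 and the 3 ER genes, was Dnaja1, a J protein of the cytosol, at -0.23 (SE 0.06, adjusted p = 0.00129 by DESeq2). Dnajb6 shares 34.5% of its stretches with other transcripts and is uncertain. The most abundant genes of each class, Dnaja2, Dnajb11 and Dnajc8, had the values -0.09, -0.15 and -0.12. Of the 39 log2 fold changes, 22 were positive and 17 negative, with a median of 0.07.

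Of the BAG genes, none of 6 was called, beside 13.9% of all tested genes, and for so few genes this lies near that share. Bag1, the most abundant with a base mean of 11957, was the lowest at -0.17 (SE 0.06, adjusted p = 0.0398 by DESeq2), and the other 5 lay between -0.07 and 0.04. The heat shock factors were not called either, with Hsf1 at 0.03 (interval -0.13 to 0.19), Hsf2, the most abundant, at 0.04 (interval -0.16 to 0.24) and Hsf4 at 0.09 (interval -0.23 to 0.41). Hsf2bp and Hsf5 had base means of 6.07 and 0.70, too low to read.

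HSF1 acts on its targets through the heat shock element, a run of inverted GAA units in the promoter, so the known targets were read as a list. Of 15 such genes, 3 were called higher (Hspb8, Hspa4l and Hspe1) and 1 lower (Serpinh1), where 6.8% and 7.07% of all genes were, and at an adjusted p without a fold threshold Hspa8 joined the higher and Dnaja1 the lower ones. The median was 0.01. With all changes lowered by 0.1, 2 were higher and 4 lower, as Hspe1 lost its call and Dnaja1, Hspa1a and Hspa1b gained one. The genes best known for induction by heat had no call at the deposited zero point, as Hspa1a, Hspa1b, Hsph1, Dnajb1 and Hsp90aa1 lay between -0.17 and 0.07. The letters of the element were searched in RefSeq promoters of GRCm38.p6, from 250 bases before to 50 after the start, as GAANNTTC or TTCNNGAA (2 units) and as 3 such units in a row, searches that hold for both strands. Of the members, 76 matched, with 96 promoters. The HSF1 targets Hspa8, Hsp90aa1 and Hsp90ab1 did not match, so their promoters were not searched. The 2-unit letters were in 25% of these and in 15.1% of all 32851 promoters, and the 3-unit letters in 6.25% and 0.603%. The 6 member promoters with 3 units are not independent, being 2 each of Dnajb6 and Hsph1 and 1 each of Hspd1 and Hspe1, which hold the same letters. The 4 genes with 3 units were Hspd1, Hspe1, Hsph1 and Dnajb6, whose log2 fold changes ran from 0.01 to 0.36 with 1 called. Among the other called HSF1 targets, Hspb8 held the 2-unit letters, and Hspa4l and Serpinh1 held neither form. Dnajb1, not called, also held neither. A match is a description of letters and not a bound site.

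Hspe1 and Hspd1 start back to back on chromosome 1 and share a promoter, which is shown because the same letters lie before a called gene and one that was not called. The Hspe1 sequence is the plus strand of GRCm38.p6 at chr1:55087898-55088147, and that of Hspa1b, an inducible gene without a call, is the minus strand at chr17:34959239-34959488. Both are the 250 bases before the start, with the 2-unit letters in capitals.
Hspe1 promoter: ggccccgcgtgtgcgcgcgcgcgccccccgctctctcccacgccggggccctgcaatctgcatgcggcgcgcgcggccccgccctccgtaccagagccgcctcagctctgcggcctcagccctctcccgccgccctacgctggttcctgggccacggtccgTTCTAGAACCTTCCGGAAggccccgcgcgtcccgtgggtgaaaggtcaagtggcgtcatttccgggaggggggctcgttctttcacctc
Hspa1b promoter: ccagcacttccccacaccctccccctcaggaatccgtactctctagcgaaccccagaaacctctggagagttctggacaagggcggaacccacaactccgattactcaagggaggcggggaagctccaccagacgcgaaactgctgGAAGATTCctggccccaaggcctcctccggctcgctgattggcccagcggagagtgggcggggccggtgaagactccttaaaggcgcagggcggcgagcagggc
In Hspe1 the matches overlap into a single block, and in Hspa1b a lone match begins 104 bases before the start.

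Chaperone genes outside these families, such as HSP90 cochaperones, prefoldins and nucleotide exchange factors, were read from a separate list of 34 genes, all of them tested. Of these, 1 was called higher and 1 lower, where 6.8% and 7.07% of all genes were. A positive log2 fold change was found for 25 of the 34 and for 48.2% of all tested genes. The median of the 34 was 0.08, a size with no firm direction. Hscb, the J protein that delivers iron-sulfur clusters in the mitochondrion, rose by 0.41 on the log2 scale (SE 0.15, adjusted p = 0.0482 by DESeq2). Sec63, the J protein of the ER translocon, was called lower at -0.26 (SE 0.08, adjusted p = 0.0149 by DESeq2), at the very edge of the fold threshold, and was not called once changes were centred on the median. At an adjusted p without a fold threshold 3 were higher (5.87% of all genes), with the HSP90 cochaperone Ppid and the chaperone-linked ubiquitin ligase Stub1 added. On the other side 2 were lower (6.87% of all genes), with Fkbp5 added at -0.26 (SE 0.06).

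The second comparison asked whether m6A on chaperone transcripts differed after MA. m6A is a methyl mark laid on adenosines of mRNA, most often near stop codons, and it is read by proteins that govern decay and translation. A peak is a stretch that the authors' caller marked as enriched in the antibody libraries, although in some of the peaks below IP reads did not exceed input in the control group. Its level is the log2 ratio of IP to input reads after scaling, and its change is the authors' estimate of the difference between MA and control, which was smaller in size than the plain difference of the ratios in 11 of 11 member peaks. Members held 11 peaks on 9 genes, with 115 to 1791 reads each over the 4 groups, and the table gives only reads pooled over the 3 libraries of a group. Of the 11, 3 were called higher and 1 lower, where 25.2% of all 2642 tested peaks were called higher and 5.94% lower. At an adjusted p under 0.05, 2 were higher and none lower, and the background was 14.9% higher. A positive change was found for 9 of the 11 and for 66.1% of all peaks. Over all peaks the median log2 ratio was 0.33 in control and 0.73 after MA, and the median change was 0.20.

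The sequences of the 3 peaks called higher are shown on GRCm38 for their places at a start codon, within a reading frame and at a stop codon, and that of Hspa1b is shown because it cannot be told from Hspa1a. The Dnajc1 stretch is the coding part of its peak, chr2:18392423-18392500, and the others are whole peaks, at chr9:104165710-104165759 for Dnajc13, chr2:3488979-3489028 for Hspa14 and chr17:34958529-34958678 for Hspa1b. All 4 are given 5′ to 3′ along the minus strand, which is transcribed into the mRNA, and capitals mark the start codon of Dnajc1 and the stop codon of Hspa14.
Dnajc1: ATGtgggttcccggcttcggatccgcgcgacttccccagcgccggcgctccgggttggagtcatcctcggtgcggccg
Dnajc13: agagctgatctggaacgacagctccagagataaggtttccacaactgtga
Hspa14: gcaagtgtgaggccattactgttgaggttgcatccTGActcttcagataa
Hspa1b: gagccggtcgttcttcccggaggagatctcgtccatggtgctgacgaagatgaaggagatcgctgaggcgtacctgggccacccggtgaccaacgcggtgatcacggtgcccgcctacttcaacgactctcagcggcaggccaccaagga

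The m6A motif was searched on the transcribed strand in 6 of its forms of 5 letters, which end in ACT after GG, GA, AG or AA and in ACA or ACC after GG. None of these 4 peaks holds 1 of them. A form was in 2 of the 11 member peaks, the 3′ UTR peak of Dnajc1 and the Dnajc6 peak, and in 37.7% of the 2146 peaks whose exonic length lies within the members' range of 25 to 150 bases.

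Dnajc1 (ERdj1) is a membrane J protein that brings BiP to the ribosome at the ER. Its first peak covers 125 bases of the first of 12 exons, with 47 bases of the 5′ UTR and 78 of the reading frame. In control cells 122 input and 77 IP reads fell in it, and after MA treatment 80 and 206. After scaling, the log2 ratio of IP to input went from -0.28 to 1.205, from below to above 0. The deposited change was 1.29, or 2.44-fold (adjusted p = 0.00648 by the exomePeak2 test). On the pooled reads it was 1.49, and 1.12 once centred on the median of all peaks. Expression of Dnajc1 had a log2 fold change of 0.10 (interval -0.05 to 0.24). A second peak in its 3′ UTR, with 156 reads, had the change 0.23 and was not called (adjusted p = 0.666 by the exomePeak2 test).

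Dnajc13 carried the member peak with the smallest p. This peak of 50 bases in exon 49 of 56 held 445 input and 288 IP reads in control cells and 307 and 609 after MA. Its log2 ratio went from -0.24 to 0.84, and the deposited change was 1.03, or 2.04-fold (adjusted p = 3.61e-05 by the exomePeak2 test). On the pooled reads the change was 1.08, and 0.70 once centred. Its mRNA was at 0.26 on the log2 scale, as given with the DnaJ genes. The other peak of the gene, over the junction of exons 10 and 11, moved from 0.04 to 0.49 and was not called (change 0.37, adjusted p = 0.309 by the exomePeak2 test).

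Hspa14, an HSP70 bound to the ribosome, had a peak over its stop codon in the last of 14 exons. It held 513 input and 390 IP reads in control cells and 355 and 533 after MA, and the log2 ratio went from -0.0016 to 0.44. The change of 0.41, or 1.33-fold, passed the unadjusted test, but its adjusted p was 0.109 by exomePeak2, so the call does not hold there. On the pooled reads its change was 0.44, and 0.07 once centred on the median of all peaks. Its mRNA had a log2 fold change of -0.04 (interval -0.17 to 0.10).

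The called fall lay in a peak assigned to Dnajc6 (auxilin), which uncoats clathrin vesicles in neurons. The control groups held 44 input and 93 IP reads and the MA groups 30 and 34, for log2 ratios of 1.47 and 0.05, and the change was -0.92 (adjusted p = 0.119 by the exomePeak2 test, so it does not hold there). The peak spans 46992 bases across the first intron with only 47 exonic bases, and the gene itself had a base mean of 1.24. The peak held 201 reads in all. Its 44 and 30 input reads exceed what a base mean of 1.24 gives the whole gene over the compared libraries. Whether the reads came from the mature Dnajc6 transcript was not tested. Without peaks wider than 1000 bases, no member peak was called lower.

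**Figure D4:**
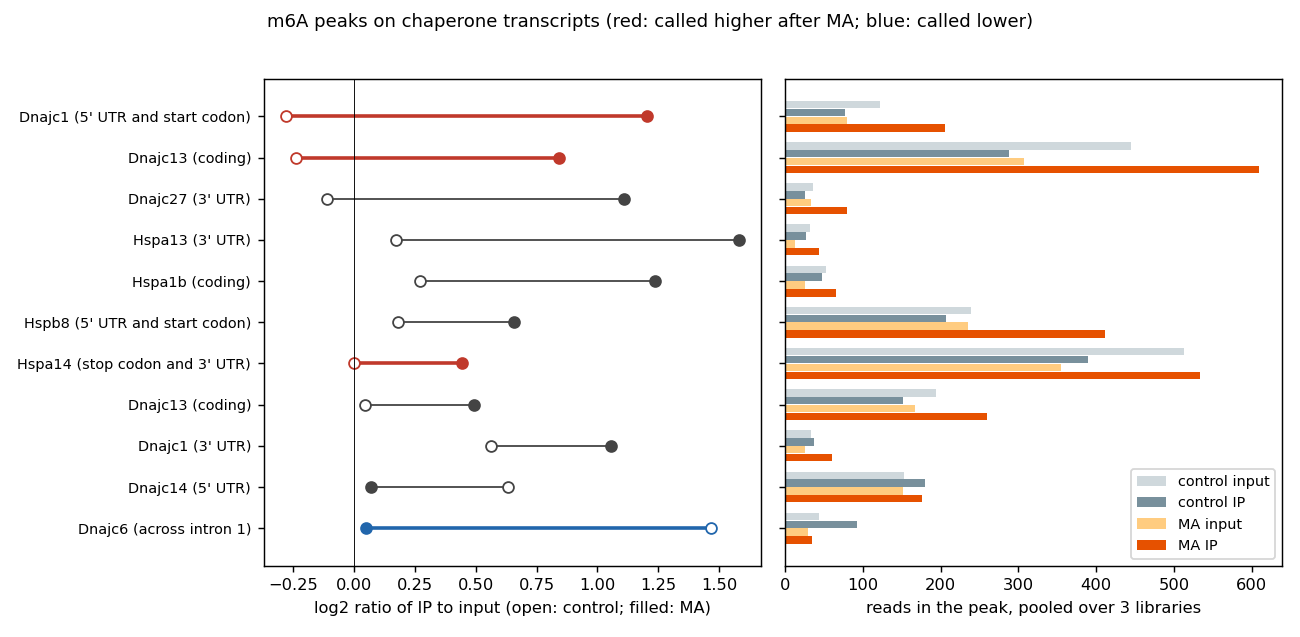
Left, log2 ratio of IP to input in control (open) and MA (filled) groups for the 11 member peaks, with red lines for peaks called higher and blue for the one called lower. Right, reads in each peak, pooled over the 3 libraries of each group. The MA point lies to the right of the control point in 9 of 11 peaks, and in the called Dnajc1 and Dnajc13 peaks IP reads pass from below input to above it.

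The remaining 5 genes held 5 peaks that were not called. Hspb8, whose mRNA rose, had a peak over its start codon with 239 input and 207 IP reads in control cells and 235 and 411 after MA, and a change of 0.41 (adjusted p = 0.207 by the exomePeak2 test). The Hspa1b peak of 150 bases in the reading frame went from 53 input and 48 IP reads to 25 and 65, with a change of 0.52 (adjusted p = 0.314 by the exomePeak2 test). It has 0 differences from Hspa1a, so it may lie on either transcript. The 3′ UTR peaks of Hspa13 and Dnajc27 had changes of 0.58 and 0.67 on only 115 and 173 reads (adjusted p = 0.272 and 0.222 by the exomePeak2 test). The 5′ UTR peak of Dnajc14 had the change -0.46 (adjusted p = 0.239 by the exomePeak2 test). On the pooled reads its change was -0.56, and -0.93 once centred on the median of all peaks, and it was called lower in both. None of these genes but Hspb8 was called in expression.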

How the data were processed

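Expression and m6A were measured in 12 libraries of HT22 cells. Reads were trimmed by the authors (fastp), aligned to mm10 (HISAT2) and quantified (StringTie), and the groups were compared by DESeq2 (taken here to be their input libraries), in versions not given in the sources used here. Of the values deposited, the base mean is a normalized signal, and the log2 fold change, its standard error, the Wald score and the p-values with their Benjamini-Hochberg adjustment are as DESeq2 writes them. For the peaks of exomePeak2, the counts deposited are pooled over the replicates of a group, with log2 ratios, their change and p-values. The tests are thus the authors' own. No count model could be run, and 0 columns of single libraries were left out.

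The members, lists and role groups were chosen with earlier results of these data known. Named genes are all called members, members with peaks, the most abundant gene of each family, known HSF1 targets, untested members and called genes of the outside list. Others (those near the threshold or passing the adjusted test alone, Hspa12a, Hspa5, Hspb6, Hspb11, the extremes of a range and the collagens) were named after their values were seen. A gene of the outside list is not reported here and was left out of its counts. Peaks were placed on GENCODE M21 transcripts (GRCm38, the assembly of mm10). Python 3.11.15, with pandas 2.3.3, numpy 2.4.6, scipy 1.17.1 and matplotlib 3.10.9, was used, and the recomputed tests were tried on simulated data. Alternatives changed the p-value, fold threshold, base mean, zero point, shared sequence, reads per peak and peak width.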

Additional observations from a re-analysis of the deposited data

How the results depend on the processing

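Of the 6 higher and 4 lower members, 5 and 3 stayed at an adjusted p with the fold threshold, with Hspb2 and Dnajc5 lost. Without a fold threshold the numbers were 13 and 11 at an unadjusted p, and 8 and 8 at an adjusted p (added after seeing the data). At 1.5-fold they were 1 and 1. Centring on the median gave 11 higher and 4 lower. Lowering all changes by 0.1 (added after seeing the data) gave 4 and 11. Among the 38 members followed singly, it turned Hspd1 to -0.0082, Dnajc1 to -0.0038, Cct5 to -0.017, Dnajb1 to -0.026, Hsf2 to -0.060, Dnajc14 to -0.086, Hsph1 to -0.087 and Hsp90aa1 to -0.098, none of which had passed a test. Other members with small positive changes, such as Dnajc15, also turned negative but were not followed singly. Among the genes outside the families, the 1 higher and 1 lower gene became 2 and 0 by centring, and the lower ones 2 by lowering. For the peaks, 3 higher and 1 lower became 2 and 0 at an adjusted p, 8 and 2 with p-values from the pooled reads, 2 and 2 with pooled reads centred on the median of all peaks, and 3 and 0 without wide peaks (added after seeing the data). Pooled reads carry counting error only and ignore the spread between libraries, and they gave 1312 of all peaks an unadjusted p under 0.05, where the deposited p gave 822. How far the deposited p, from the study's Poisson model, includes that spread was not tested. The cause of the other moves was not tested. Shares of all genes and peaks are given above for the main settings, the adjusted p without a fold threshold and the base mean of 100. For the other settings the share called in each direction was not worked out, and the counts show only how far the calls move. Filters on base mean, shared sequence and reads left the numbers within 1.5 times. No paired analysis was possible because the tables hold no values of single libraries, and for the same reason no library could be left out in turn and no scaling or count model could be changed. Depth limits the 13 tested members with a base mean under 100 and the peaks with few reads.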
